A study of Mus musculus with 8 samples.

Results

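Rag1, Rag2 and Dntt, the lymphoid genes that carry out V(D)J recombination and diversify its joints, were followed in 2 mouse T cell leukemia lines by microarray. They were taken as every probe set, the unit of an Affymetrix array, whose platform gene symbol is Rag1, Rag2 or Dntt. That gave 5 probe sets of 3 genes, out of 45037 probe sets and 18193 genes named by at least 1 probe set of a single symbol. The lines were an E2a-/-Lef1F/F leukemia (here the Lef1F/F line) and an E2a-/- leukemia (here the E2a-/- line), both on the FVB/NJ background. Both lack E2a, the gene now named Tcf3, as do all the control arrays, and by genotype the lines differ in that 1 carries floxed alleles of the transcription factor gene Lef1. Each line was infected with a retrovirus that carries Cre recombinase and GFP (MigR1-Cre) or GFP alone (MigR1), and GFP+ cells were sorted 72 hours later. The 4 groups were Lef1F/F MigR1-Cre, Lef1F/F MigR1, E2a-/- MigR1-Cre and E2a-/- MigR1, with 2 arrays each. Each genotype is a single line grown out in culture from the thymic cells of a sick mouse, so an effect of genotype cannot be told apart from one of the line, and nothing in the labels says that the 2 arrays of a group came from separate infections. The p-values therefore measure only the spread between these arrays. Cre in the E2a-/- line, which has no floxed Lef1 allele, serves as the control for Cre and infection.

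RAG1 and RAG2 form the recombinase that cuts DNA at the recombination signals beside V, D and J segments of the antigen receptor genes, and neither protein cuts without the other. RAG1 holds the catalytic site, and RAG2 is a cofactor that reads histone marks and is destroyed as cells enter S phase. Dntt encodes terminal deoxynucleotidyl transferase (TdT), a DNA polymerase that needs no template and adds nucleotides to the cut ends before they are joined. In the thymus all 3 genes are on in immature thymocytes, and Rag1 and Rag2 lie next to each other and are transcribed toward each other. E proteins, the family of E2a, bind a motif called the E-box, and LEF1 belongs to the TCF/LEF family that carries the transcriptional response to Wnt signals.

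The sequences before the 3 genes are shown because both transcription factors altered in these lines bind short motifs. The Rag2 window holds fewer E-boxes than those of Rag1 and Dntt. Each run is the 250 bases before the RefSeq gene start in GRCm38.p6, read toward the gene, with the E-boxes (CANNTG) in capitals. The Rag1 window is chr2:101649533-101649782 on the minus strand, the Rag2 window is chr2:101624462-101624711 on the plus strand, and the Dntt window is chr19:41029025-41029274 on the plus strand.
Rag1: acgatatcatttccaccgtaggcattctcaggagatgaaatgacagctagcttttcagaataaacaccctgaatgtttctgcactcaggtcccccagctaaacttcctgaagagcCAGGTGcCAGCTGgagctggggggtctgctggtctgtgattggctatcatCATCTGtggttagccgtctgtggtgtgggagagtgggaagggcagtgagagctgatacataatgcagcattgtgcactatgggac
Rag2: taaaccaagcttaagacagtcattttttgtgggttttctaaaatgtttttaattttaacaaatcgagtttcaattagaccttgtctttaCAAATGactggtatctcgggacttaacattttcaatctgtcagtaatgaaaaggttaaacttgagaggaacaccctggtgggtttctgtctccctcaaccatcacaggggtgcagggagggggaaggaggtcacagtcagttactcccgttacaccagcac
Dntt: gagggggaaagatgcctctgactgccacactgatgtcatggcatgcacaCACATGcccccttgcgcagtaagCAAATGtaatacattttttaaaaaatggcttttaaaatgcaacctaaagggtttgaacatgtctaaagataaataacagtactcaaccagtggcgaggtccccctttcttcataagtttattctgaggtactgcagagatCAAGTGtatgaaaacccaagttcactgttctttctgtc

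Rag1 had 3 E-boxes, starting 135, 128 and 85 bases before the gene, and 2 copies of the RUNX motif TGTGGT, starting at 81 and 67 bases, of which the one at 81 overlapped the E-box at 85. Rag2 had 1 E-box, at 161 bases, and no RUNX motif. Dntt had 3 E-boxes, at 201, 178 and 38 bases, and no RUNX motif. On both strands, neither the TCF/LEF core CTTTG nor the FOXO motif GTAAACA was found in any of the 3 windows. Over the same window of 32851 RefSeq promoters, 66.2% held an E-box, 48.6% the TCF/LEF core, 14.0% the RUNX motif and 3.2% the FOXO motif. An E-box is thus common in such windows, and a match describes letters only.

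**Figure D1:**
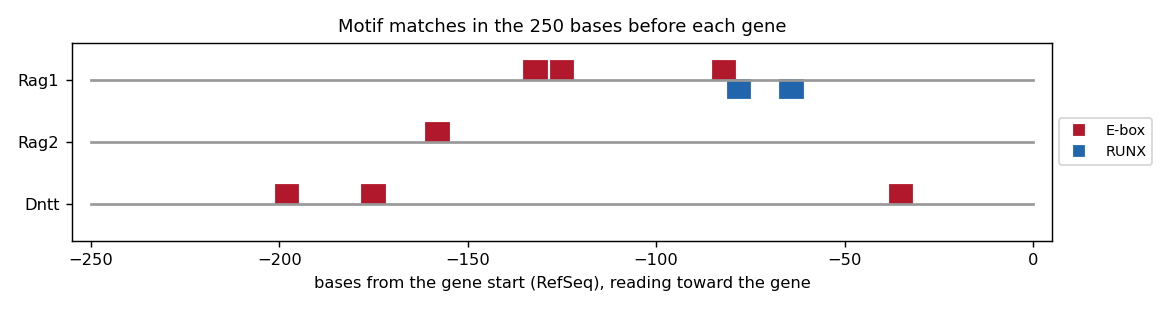
Positions of E-box (CANNTG, red) and RUNX (TGTGGT, blue) matches in the windows before Rag1, Rag2 and Dntt. The x axis is the distance in bases from the RefSeq gene start, and the rows show 3 E-boxes for Rag1 and Dntt, 1 for Rag2, and RUNX matches before Rag1 alone.

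Before the recombination genes, the Lef1 transcript itself was read as a check of the labels. At its brightest probe set (1454734_at) it measured 1902.95 and 1677.82 in Lef1F/F MigR1-Cre arrays, against 6917.98 and 6125.96 in Lef1F/F MigR1 arrays, a fall of 1.87 ± 0.09 on the log2 scale (SE, limma adjusted p = 0.000703). In the E2a-/- line it measured 3007.63 and 3416.38 with MigR1-Cre, against 3288 and 3337.43 with MigR1. At the other Lef1 probe set, 1421299_a_at, the log2 difference in the Lef1F/F line was -2.54 (limma adjusted p = 0.000584). Lef1 thus fell with MigR1-Cre in the floxed line. At the brightest probe set the difference of the MigR1-Cre effects between the lines passed the test (log2 -1.82, adjusted p = 0.0184). Tcf3, the targeted E2a gene, at its brightest probe set averaged 695 and 712 in the Lef1F/F MigR1-Cre and MigR1 groups and 844 and 812 in the E2a-/- MigR1-Cre and MigR1 groups, and its other probe sets measured 88.5 to 129.63 and 80.73 to 91.23 units over all arrays, the last of these near the array medians. The position of the probes relative to the deleted part of Tcf3 was not analysed here, so they do not check that allele. The Lef1 probes were not placed relative to its floxed part either, so the size of the Lef1 fall does not measure the extent of deletion.

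The arrays had like distributions, with medians between 88.88 and 91.02 intensity units. Of 8 measured T lineage marker genes, 7 averaged above 180 units, about 2 times the array medians, in every group, and 0 of 8 B lineage and 0 of 7 myeloid markers did. Their sums per array ran over 30458 to 35975 (Lef1F/F MigR1-Cre), 28134 to 32965 (Lef1F/F MigR1), 26178 to 26759 (E2a-/- MigR1-Cre) and 26075 to 26912 units (E2a-/- MigR1) for T lineage, and over 643 to 699 for B lineage and 549 to 573 for myeloid markers over all arrays. Of 5 natural killer and innate lymphoid markers Gzma and Id2 were above 180 units, while Ncr1, Klrd1 and Nkg7 were below, and the sums per array ran over 8457 to 10518 in the Lef1F/F line and 7393 to 7767 in the E2a-/- line. Of 3 erythroid markers Epor was above 180 units and Hba-a1 was not, with sums of 389 to 426 in the Lef1F/F line and 362 to 394 in the E2a-/- line. Of 5 stromal, epithelial and endothelial markers Col1a2 and Pecam1 were above 180 units, and Col1a1, Epcam and Cdh5 were below. The sums of this list ran over 722 to 821 in the Lef1F/F line and 4592 to 4846 in the E2a-/- line. Col1a2, a collagen chain gene, made that difference, with 279 and 302 in the Lef1F/F MigR1-Cre and MigR1 groups and 4327 and 4160 in the E2a-/- MigR1-Cre and MigR1 groups. The Lef1F/F arrays did not pair best within their group. The first arrays of the MigR1-Cre and MigR1 groups correlated at 0.998 over all probe sets, as did the second arrays, against 0.994 for the 2 arrays of either group. The E2a-/- arrays did not pair best within their group either, with values closer together. There the first arrays of the 2 vectors correlated at 0.9986 and the second arrays at 0.9974. Within the E2a-/- MigR1 and MigR1-Cre groups the values were 0.9981 and 0.9976.

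Rag1 was bright in all 8 arrays and differed little between groups. Its only probe set (1450680_at) measured 6855 and 8826.25 in Lef1F/F MigR1-Cre arrays, and 7013.77 and 8851.65 in Lef1F/F MigR1 arrays. It measured 7227.48 and 6907.56 in E2a-/- MigR1-Cre arrays, and 7589.25 and 7390.05 in E2a-/- MigR1 arrays. Both Lef1F/F groups held 1 array above all 4 E2a-/- arrays and 1 array lower than at least 3 of them, so the widest spread in Rag1 lay between arrays of the same group. The second Lef1F/F array was 1.29 times the first with MigR1-Cre and 1.26 times the first with MigR1, against 0.956 and 0.974 times in the E2a-/- line. The order of the means was Lef1F/F MigR1 (7932.7 ± 1299.6), Lef1F/F MigR1-Cre (7840.6 ± 1393.9), E2a-/- MigR1 (7489.7 ± 140.9) and E2a-/- MigR1-Cre (7067.5 ± 226.2; SD, n = 2). The E2a-/- groups did not overlap, and neither pair of neighbours within a line passed the test. The neighbours Lef1F/F MigR1-Cre and E2a-/- MigR1 overlapped, and their difference was not tested.

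Rag2, the partner without which RAG1 does not cut, separated the lines. Its only probe set (1418065_at) measured 438.84 and 487.52 in Lef1F/F MigR1-Cre arrays, and 421.35 and 415.86 in Lef1F/F MigR1 arrays. It measured 162.55 and 130.78 in E2a-/- MigR1-Cre arrays, and 159.50 and 139.78 in E2a-/- MigR1 arrays. All 4 Lef1F/F arrays lay above all 4 E2a-/- arrays, with no overlap. Such upward separation of the lines held for 22.9% of all probe sets in MigR1 arrays and 23.6% in MigR1-Cre arrays. The share over both vectors together was not counted. The order of the means was Lef1F/F MigR1-Cre (463.2 ± 34.4), Lef1F/F MigR1 (418.6 ± 3.88), E2a-/- MigR1 (149.6 ± 13.9) and E2a-/- MigR1-Cre (146.7 ± 22.5; SD, n = 2), and the neighbours within each line did not pass the test.

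Dntt was bright in every array at 2 of its 3 probe sets, which read the same gene and are not independent of each other. At 1449757_x_at, the brightest, it measured 4030.57 and 4364.06 in Lef1F/F MigR1-Cre arrays, and 3871.73 and 3926.64 in Lef1F/F MigR1 arrays. The same probe set measured 3095.30 and 3038.86 in E2a-/- MigR1-Cre arrays, and 3132.28 and 3942.80 in E2a-/- MigR1 arrays. The E2a-/- MigR1 group thus held 1 array at the level of the Lef1F/F line and 1 at the level of the E2a-/- MigR1-Cre arrays. The suffix _x marks a set some of whose probes can match other transcripts, so the other probe sets were read beside it.

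The probe set 1450545_a_at, whose probes are shared by variants of one gene, gave 3824.25 and 4320.75 for Dntt in Lef1F/F MigR1-Cre arrays, and 3577.34 and 4163.43 in Lef1F/F MigR1 arrays. It gave 2840.25 and 2795.91 in E2a-/- MigR1-Cre arrays, and 2736.71 and 3522.84 in E2a-/- MigR1 arrays. The dim probe set 1420166_at gave 227.65 and 261.18 in Lef1F/F MigR1-Cre arrays, 204.24 and 252.98 in Lef1F/F MigR1 arrays, 187.66 and 192.35 in E2a-/- MigR1-Cre arrays, and 180.26 and 219.13 in E2a-/- MigR1 arrays. At all 3 probe sets the means had the same order, which was Lef1F/F MigR1-Cre, Lef1F/F MigR1, E2a-/- MigR1 and E2a-/- MigR1-Cre, with the second E2a-/- MigR1 array above the first. In bulk arrays of this kind, fewer cells that express a gene and less of its RNA per cell cannot be told apart.

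**Figure D2:**
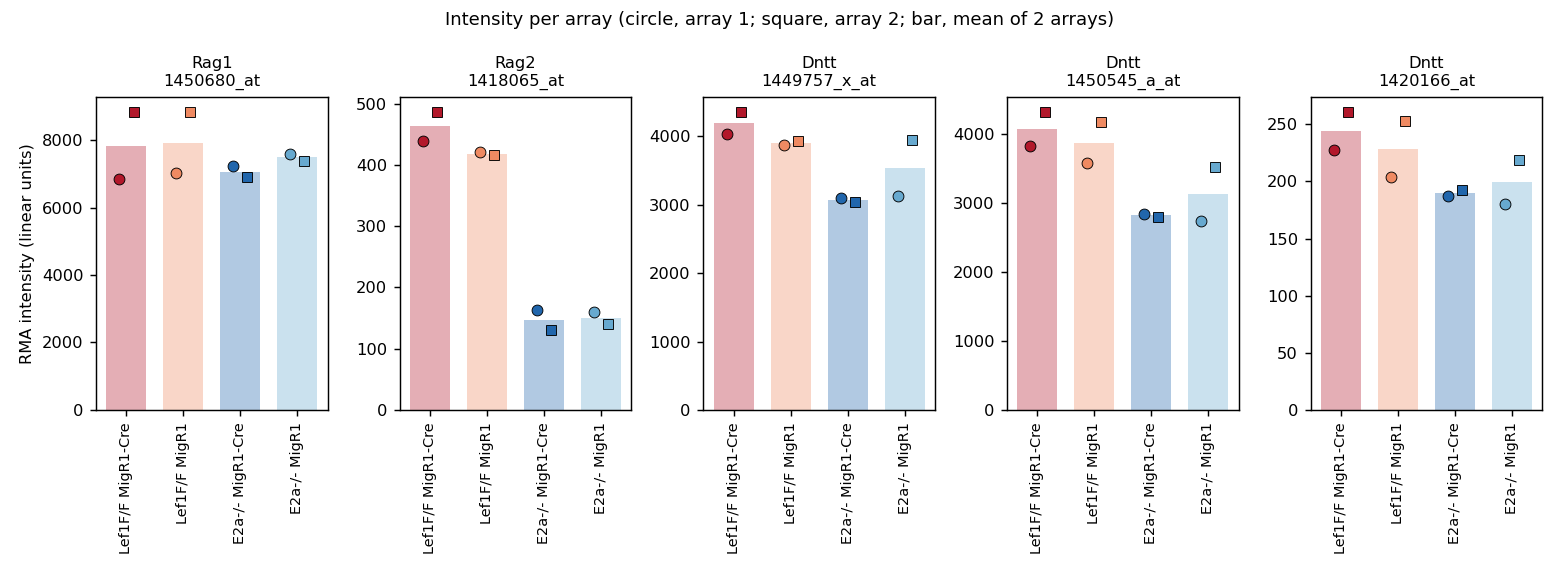
RMA intensity on a linear axis (units) of the Rag1, Rag2 and Dntt probe sets in the Lef1F/F MigR1-Cre, Lef1F/F MigR1, E2a-/- MigR1-Cre and E2a-/- MigR1 groups, with a point for every array and a bar at the group mean. Rag2 is above 415 in all 4 Lef1F/F arrays and below 163 in all 4 E2a-/- arrays, while the groups overlap for Rag1.

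The first comparison asked what happened to the recombination genes when Lef1 was deleted. None of the 5 probe sets passed the test with MigR1-Cre in the Lef1F/F line (adjusted p = 1 for each), where 0.167% of all probe sets passed. The log2 difference of MigR1-Cre from MigR1 was -0.02 for Rag1 (95% interval -0.33 to 0.30), 0.14 for Rag2 (-0.12 to 0.40) and 0.11 for Dntt at its brightest probe set (-0.13 to 0.34). In folds, the intervals reached from 0.794 to 1.23 for Rag1, from 0.923 to 1.32 for Rag2 and from 0.912 to 1.27 for Dntt. In the same arrays Lef1, the deleted gene itself, was 0.274 times its MigR1 level at its brightest probe set (0.236 to 0.319). None of the intervals for the recombination genes reached that far, but smaller changes within those intervals were not excluded. The arrays did not overlap for Rag2 and for 1449757_x_at of Dntt, with both MigR1-Cre arrays above both MigR1 arrays. That is 2 of 5 probe sets, where 15.4% of all probe sets were so separated upward.

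In the control line without a floxed allele, MigR1-Cre likewise moved none of the 5 probe sets past the threshold. The log2 differences there were -0.08 for Rag1 (95% interval -0.40 to 0.23), -0.03 for Rag2 (-0.29 to 0.23) and -0.20 for Dntt at its brightest probe set (-0.43 to 0.04, adjusted p = 1). By limma 0 of 45037 probe sets, or 0%, passed in that line, and 836 had an unadjusted p under 0.05. Both MigR1-Cre arrays were below both MigR1 arrays for Rag1 and for 1449757_x_at of Dntt, 2 of 5 probe sets, where 15.2% of all were so separated downward. The difference of the MigR1-Cre effects between the lines was 0.07 for Rag1, 0.18 for Rag2 and 0.30 for Dntt on the log2 scale. None of these passed the test (adjusted p = 1), which 0.02% of probe sets did. A p that misses the threshold leaves the change within its interval, which for the Dntt difference was -0.03 to 0.64.

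The lines themselves were then set against each other in the MigR1 arrays, where no Cre had been added. Rag2 was higher in the Lef1F/F line than in the E2a-/- line by 1.49 ± 0.11 on the log2 scale (SE, limma adjusted p = 9.76e-05), or 2.80-fold (95% interval 2.34 to 3.36). Rag1 differed by 0.07 (0.846 to 1.31 as a fold, adjusted p = 0.84). Dntt differed by 0.15 (adjusted p = 0.486), 0.31 (adjusted p = 0.193) and 0.19 (adjusted p = 0.463) at 1449757_x_at, 1450545_a_at and 1420166_at. Thus 1 of 5 probe sets passed, where 10.7% of all probe sets did, and the call was that of Rag2. With the Lef1F/F arrays paired across vectors as a replicate block, a choice made after seeing the data, 1450545_a_at of Dntt passed too (0.31, adjusted p = 0.0354). The block takes the spread between Lef1F/F replicates out of the error, while the line comparison still carries it. This pass is therefore too lenient to count as support. Only 188 of the 45037 probe sets, or 0.417%, rose by more than Rag2 in this comparison. The E2a-/- arrays read Rag2 below 180 units, and the T lineage marker sum was higher in the Lef1F/F line too. Single markers of other cell types passed in the same comparison. Their log2 differences were -3.78 for Col1a2 (adjusted p = 2e-07), -0.75 for Id2 (adjusted p = 0.00699), 0.35 for Gzma (adjusted p = 0.0199) and -0.42 for the dim Blnk (adjusted p = 0.0234). Of the markers, 4 of 5 stromal, epithelial and endothelial, 3 of 5 natural killer and innate lymphoid, and 7 of 8 B lineage ones did not pass. Among those that did not pass, only Pecam1 averaged above 180 units. The others were too dim for these counts to show whether the lists moved as a whole. The part of these markers in the Rag2 difference was not tested.

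The MigR1-Cre arrays are of the same 2 lines and share 1 fitted spread with the MigR1 arrays, so this line comparison is not independent. In the MigR1-Cre arrays Rag2 was higher in the Lef1F/F line by 1.67 on the log2 scale (3.17-fold, 95% interval 2.65 to 3.80, adjusted p = 5.72e-05). Dntt was higher there too, by 0.45 at 1449757_x_at (adjusted p = 0.0261) and 0.53 at 1450545_a_at (adjusted p = 0.0318), and 1420166_at was 0.36 higher without passing (adjusted p = 0.125). Rag1 differed by 0.14 (adjusted p = 0.643). Thus 3 of 5 probe sets passed, of which 2 belong to Dntt, where 12% of all probe sets passed. Rag2 and all 3 Dntt probe sets did not overlap between the lines in these arrays, where 23.6% of all probe sets were so separated upward. With MigR1 the count was 2 of 5, for Rag2 and 1450545_a_at, against 22.9% of all. Averaged over both vectors, the line difference was 0.11 for Rag1 (adjusted p = 0.556), 1.58 for Rag2 (adjusted p = 5.1e-06) and 0.30 for Dntt at its brightest probe set (adjusted p = 0.0215), and 20.5% of all probe sets passed. Whether the Dntt difference depends on the vector is the same contrast as the difference of the MigR1-Cre effects, which did not pass.

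**Figure D3:**
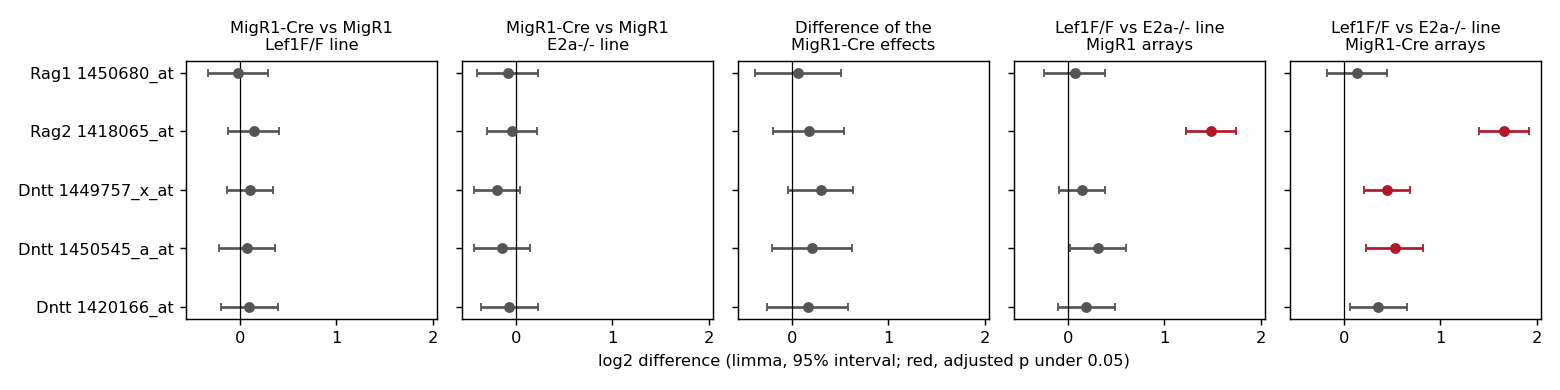
log2 difference (x axis, limma estimate with 95% interval) of the 5 probe sets of Rag1, Rag2 and Dntt in the MigR1-Cre comparisons, their difference, and the line comparisons in MigR1 and MigR1-Cre arrays, with red marking an adjusted p under 0.05. Rag2 sits at 1.49 and 1.67 in the line comparisons, and no probe set is red in the MigR1-Cre comparisons.

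Since RAG1 and RAG2 act as 1 complex and their genes are neighbours, the change of Rag2 was also set against those of Rag1 and Dntt. Within each array the log2 intensity of Rag1 was subtracted from that of Rag2, and this difference averaged 1.47 higher in the 4 Lef1F/F arrays than in the 4 E2a-/- arrays (two-sided exact permutation test, p = 0.0286, the smallest that 4 against 4 allows). Rag2 minus Dntt was likewise 1.28 higher (exact permutation p = 0.0286, and 0.0286 adjusted over both comparisons). The within-array differences of the lines did not overlap in either case. Rag2 had already been seen to separate the lines by more than Rag1 or Dntt varied, so the smallest p was all but fixed beforehand. The arrays of a line are also not independent of each other, so the test adds no support of its own. The values describe a larger difference for Rag2 between these lines, and do not show that Rag1 or Dntt was equal.

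The genes beside the Rag locus were read to see whether the Rag2 difference extended to them. Iftap, which in RefSeq overlaps Rag2 on the opposite strand, averaged 305 ± 22.5 and 331 ± 20.7 in the Lef1F/F MigR1-Cre and MigR1 groups, and 255 ± 52.5 and 268 ± 22.0 in the E2a-/- MigR1-Cre and MigR1 groups (SD, n = 2). Its line difference in MigR1 arrays was 0.31 on the log2 scale (adjusted p = 0.236). Traf6, a ubiquitin ligase of inflammatory signalling, differed by 0.09 (adjusted p = 0.565), and Prr5l, near the array background, by 0.04 (adjusted p = 0.815). None of the 3 neighbours passed in any of the 5 comparisons, so the line difference that passed at this locus was that of Rag2. That does not show that the neighbours were equal between the lines.

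Of 23 measured transcription factors known to act on the Rag and Dntt loci in mouse lymphocytes, 5 were higher and 3 lower in the Lef1F/F line in MigR1 arrays, where 8.71% and 5.88% of all genes were. The median of the list was 0.03 on the log2 scale, against -0.00496 over all genes. Foxo1, an activator of the Rag genes, averaged 374 ± 29.2 in the Lef1F/F line against 196 ± 7.01 in the E2a-/- line (log2 difference 0.93, adjusted p = 0.00101). Lef1 was also higher there (0.97, adjusted p = 0.000368), as were Bcl11b, a factor of T lineage commitment (0.36, adjusted p = 0.0132), Runx1, which binds a Rag control element in thymocytes (0.49, adjusted p = 0.017), and Myb (0.25, adjusted p = 0.0296). Tcf4, the E protein E2-2, was lower in the Lef1F/F line, at 55.4 ± 2.43 against 417 ± 1.93 in the E2a-/- line (fitted log2 difference -2.91, adjusted p = 5.64e-06). The Lef1F/F value lay below the 40th percentile of every array, which was 75.21 to 76.38 units, so the size of the Tcf4 difference is not a measured fold. Satb1, a chromatin organiser needed for full Rag expression in mouse thymocytes, was lower by a log2 difference of -0.46 (adjusted p = 0.00233), and Ikzf3, of the Ikaros family, by -0.35 (adjusted p = 0.0158).

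In the MigR1-Cre arrays 6 of these factors were higher and 4 lower in the Lef1F/F line, against 8.6% and 7.46% of all genes. Tcf4 (log2 -2.92, adjusted p = 6.21e-06) and Foxo1 (0.49, adjusted p = 0.0234) passed there as they did with MigR1, whereas Lef1 was on the other side (-0.84, adjusted p = 0.00085). Any part of Lef1 or of the other factors in the Rag2 difference between the lines was not tested. With MigR1-Cre in the Lef1F/F line, Lef1 was the 1 of the 23 factors that passed, in a comparison where 0.066% of all genes were higher and 0.22% lower. The list median there was 0.03, against -0.00105 over all genes.

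**Figure D4:**
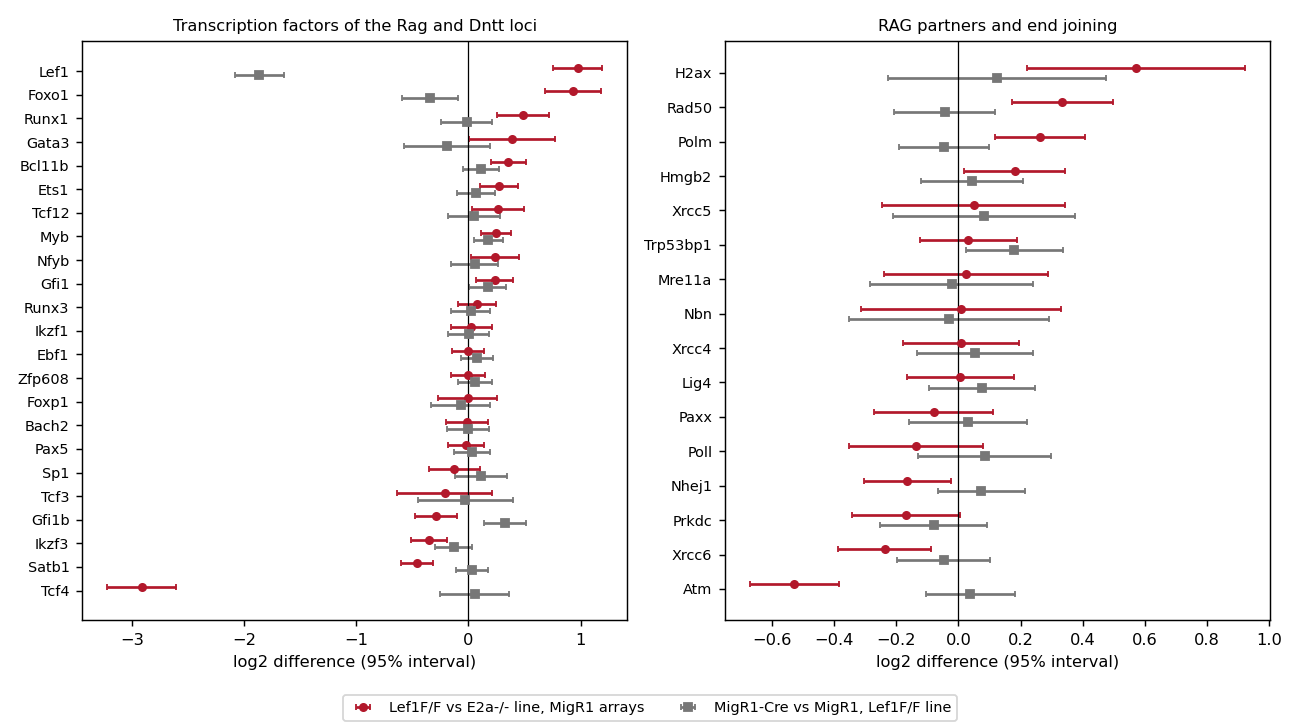
log2 difference (x axis, limma estimate with 95% interval) of transcription factors of the Rag and Dntt loci, left, and RAG partners and end joining genes, right, each at its brightest probe set. Red circles set the Lef1F/F line against the E2a-/- line in MigR1 arrays and grey squares give the effect of MigR1-Cre within the Lef1F/F line. Tcf4 at -2.91 and Lef1 at 0.97 are at the ends of the red circles, and Lef1 at -1.87 is the grey square farthest from 0.

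The machinery that acts with RAG and joins its breaks was measured at 16 genes, of which 2 were higher and 1 lower in the Lef1F/F line in MigR1 arrays, against 8.71% and 5.88% of all genes. Rad50, of the complex that holds broken ends, was higher by 0.33 (adjusted p = 0.0196), and Polm, a polymerase related to TdT, by 0.26 (adjusted p = 0.0336). Atm, the kinase that answers DNA breaks, was lower, at 551 ± 11.9 in the Lef1F/F line against 794 ± 44.3 in the E2a-/- line (log2 -0.53, adjusted p = 0.00106). The list median was 0.01, against -0.00496 over all genes. None of the 16 passed with MigR1-Cre in either line, and the smallest p in the Lef1F/F line was that of Trp53bp1 (log2 0.18, adjusted p = 0.977).

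RAG2 protein is marked for destruction by CDK2 and the SCF ligase, and 11 genes of this route and of a RAG1-binding ligase were measured. In MigR1 arrays 1 was higher and 1 lower in the Lef1F/F line, against 8.71% and 5.88% of all genes. Cdkn1b, the CDK2 inhibitor p27, averaged 373 ± 64.3 in the Lef1F/F line against 206 ± 19.7 in the E2a-/- line (log2 0.85, adjusted p = 0.0166). Cdkn1a, the inhibitor p21, averaged 660 ± 126 in the Lef1F/F line against 1157 ± 3.80 in the E2a-/- line (log2 -0.82, adjusted p = 0.00666). With MigR1-Cre in the Lef1F/F line none of the 11 passed, and Cdkn1a had a log2 difference of 0.68 (adjusted p = 0.237). Protein was not measured on these arrays.

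Among 7 measured genes of the antigen receptors and the pre-TCR, the receptor of thymocytes that carry a rearranged beta chain, 2 were higher and 2 lower in the Lef1F/F line in MigR1 arrays, against 8.71% and 5.88% of all genes. Cd3g and Cd3e, subunits of the CD3 complex, were higher by 0.46 (adjusted p = 0.00594) and 0.32 (adjusted p = 0.0122). Ptcra, the invariant chain of the pre-TCR, averaged 1747 ± 197 in the Lef1F/F line against 2231 ± 172 in the E2a-/- line (log2 -0.36, adjusted p = 0.0453). Tcra was dim in both lines, at 52.1 in the Lef1F/F line and 109 in the E2a-/- line (adjusted p = 0.00172), and since the Lef1F/F value was below the 40th percentile of every array no size is given for the difference. With MigR1-Cre none of the 7 passed in either line, and Ptcra had a log2 difference of 0.48 in the Lef1F/F line (adjusted p = 0.2).

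The genes whose profile over the 8 arrays was most like that of each recombination gene were named by Pearson correlation of log2 intensity, among 713 or 714 genes that varied by at least 1 on the log2 scale. Rag1 (log2 12.74 to 13.11) and the brightest Dntt probe set (11.57 to 12.09) varied by less than that. Genes with as small a spread as theirs were therefore not candidates. The 8 arrays share 2 lines, so they are not independent points, and the correlation is given as a description. For Rag2 the 5 were Ier3 (r = 0.998), Eml5 (0.997), Casd1 (0.996), Ttc30a1 (0.996) and Ttc30b (0.995). Ier3 averaged 175 and 165 in the Lef1F/F MigR1-Cre and MigR1 groups, against 57.2 and 57.3 in the E2a-/- MigR1-Cre and MigR1 groups. For Dntt they were Zcchc24 (0.883), Nfkbie (0.881), Prom1 (0.875), Rhoq (0.875) and Mns1 (0.872). For Rag1, whose spread lay within the groups, the closest were Dipk2a (0.894) and Phf6 (0.852), followed by Agbl5 (0.797), Gsdme (0.751) and Esco2 (0.736). Among the members, Rag2 and Dntt correlated at 0.781, Rag1 and Dntt at 0.455 and Rag1 and Rag2 at 0.42 over the 8 arrays.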

How the data were processed

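RNA of GFP+ cells was labelled with a 3' in vitro transcription kit and hybridised to Affymetrix mouse arrays. The authors normalised the scans with RMA (RMAExpress, version not given in the sources used here), and the deposited table holds the resulting intensity of each probe set on a linear scale. RMA makes the array distributions alike, which hides any shift in the RNA content of cells, and small differences between dim probe sets can be compressed. The study's own comparisons in dChip were not used here.

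Groups followed the titles of the samples, whose vectors are also those of the source names. Another label field names the other vector for the E2a-/- MigR1-Cre and Lef1F/F MigR1 arrays and was not used. Log2 intensities of all 8 arrays were fitted with limma 3.58.1 in R 4.3.3 (lmFit and eBayes, 4 groups, 4 residual and 3.99 prior degrees of freedom), with no filter and Benjamini-Hochberg adjustment over 45037 probe sets of each contrast at a threshold of 0.05. The script was tested on simulated data. A gene was read at its brightest probe set. Of the probe sets, 34945 had 1 platform gene symbol, 932 had several and 9160 had none.

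All probe sets of Rag1, Rag2 and Dntt were named. From each list up to 4 genes past the threshold were named by smallest p, with the others of a count of 5 or fewer added after their values were seen, or up to 2 where none passed, and 5 genes by likeness, from the upper 60% of mean intensity. The members and lists were chosen with earlier results of these data known. Of 113 list entries 96 were measured. Promoters came from RefSeq (GRCm38.p6), where all 3 genes matched. Alternatives were leaving out each array, other normalisations, an offset of 32, a filter at the 40th percentile, array weights, other moderation, smaller fits, the MigR1-Cre arrays or both vectors for the line difference, and a threshold of 0.01. The number of arrays limits the precision.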

Additional observations from a re-analysis of the deposited data

Results flagged for a closer look

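The brightest Dntt probe set (1449757_x_at) moved in opposite directions with MigR1-Cre in the 2 lines. Both MigR1-Cre arrays lay above both MigR1 arrays in the Lef1F/F line, and both lay below in the E2a-/- line. Of all probe sets, 15.4% were so separated upward in the Lef1F/F line and 15.2% downward in the E2a-/- line. The share with both was not counted. The difference of the effects was 0.302 on the log2 scale. The limma test of that difference did not pass (unadjusted p = 0.0725, adjusted p = 1). The effect in the E2a-/- line rests on the second MigR1 array at 3942.80 units, since the first was at 3132.28 units, near the MigR1-Cre arrays at 3095.30 and 3038.86 units.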

How the results depend on the processing

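The higher Rag2 level in the Lef1F/F line kept its direction and its call in all 20 alternatives run, with log2 differences of 1.31 to 1.67 and adjusted p of 4.453e-07 to 0.002605. No member passed in the MigR1-Cre comparisons under any alternative. In the line comparison 1 of 5 probe sets passed as reported, against 3 in the MigR1-Cre arrays and 3 averaged over both vectors. The added calls were 1449757_x_at of Dntt (0.45 and 0.30) and 1450545_a_at (0.53 and 0.42). Directions turned only for values that did not pass, and only when 1 array was left out, in ranges of -0.20 to 0.16 for Rag1, -0.0345 to 0.18 for 1450545_a_at and -0.0531 to 0.26 for 1420166_at with MigR1-Cre in the Lef1F/F line. In the E2a-/- line the ranges were -0.19 to 0.12 for Rag2, -0.32 to 0.0422 for 1450545_a_at and -0.21 to 0.0758 for 1420166_at. They were -0.12 to 0.25 for the Rag1 difference of effects, and -0.0946 to 0.24 for Rag1 and -0.0161 to 0.32 for 1449757_x_at between the lines. The cause was not tested.

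The labels give no replicate numbers to pair arrays. The Lef1F/F arrays were paired across vectors by their likeness, a choice made after seeing the data, and fitted as a replicate block. Then 2 of 5 probe sets passed between the lines, Rag2 and 1450545_a_at (0.31, adjusted p = 0.0354), and the block changed no other member's call. Because the block takes the spread between Lef1F/F replicates out of the error, calls between the lines are too lenient with it. Over all probe sets, 75 passed with MigR1-Cre in the Lef1F/F line, 345 with the block, 46 with array weights, 27 at the threshold of 0.01, 0 with the line's own 4 arrays and 20 to 33 with 1 array left out. In the E2a-/- line 0 passed as reported and 1 with its own 4 arrays or the block. The difference of effects gave 9, against 86 with the block, 5 with the filter, 0 at the threshold of 0.01 and 0 to 7 with 1 array left out. The line comparison gave 4829, against 9595 with the block, 9219 averaged over vectors, 2583 at the threshold of 0.01 and 2267 to 5396 with 1 array left out.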
